A study of Mus musculus with 16 samples.

Results

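Oxidative phosphorylation genes were followed across early thymocytes as 89 of the 19531 genes that the arrays name. They were chosen by gene symbol and not by level: all names beginning Nduf, Uqcr, Atp5 or Cox4 to Cox8, and Sdha, Sdhb, Sdhc and Sdhd. By complex they comprised 41 genes of complex I, 4 of complex II, 8 of complex III, 19 of complex IV and 17 of complex V. A floor on signal, a highest group mean of at least 7.05 on the log2 scale, was passed by 84 of the 89, beside 10689 genes in all. The 5 genes below it were the heart and muscle, testis or hypoxia-linked isoforms Cox7a1, Cox7b2, Cox8b, Cox8c and Ndufa4l2, with highest group means of 6.93, 4.84, 6.72, 6.84 and 6.43.

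The mitochondrial respiratory chain passes electrons from NADH (complex I) and succinate (complex II) through complex III to complex IV, which reduces oxygen. Complexes I, III and IV pump protons across the inner membrane, and complex V, the ATP synthase, uses the returning protons to make ATP. Most subunits are encoded in the nucleus, and a few core subunits in mitochondrial DNA. In the thymus, CD4-CD8- (double-negative, DN) cells rearrange the T cell receptor (TCR) beta gene at the CD25+ stage. They then lose CD25, divide rapidly as DN4 cells and move on to express CD4 and CD8.

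The arrays compared thymocytes of mice carrying the BDC2.5 TCR transgene (BDC), a receptor cloned from a diabetogenic T cell, with thymocytes of non-transgenic (non-Tg) mice that have a polyclonal repertoire. Each genotype was sampled on the NOD background, which develops autoimmune diabetes, and on B6g7, C57BL/6 mice carrying the MHC haplotype of NOD. The 8 groups were BDC/NOD DN4, BDC/B6g7 DN4, NOD DN4, B6g7 DN4, BDC/NOD DN2-3, BDC/B6g7 DN2-3, NOD DN2-3 and B6g7 DN2-3, with 2 arrays each. All mice were 4 weeks old, and CD4+ and CD8+ cells were killed with complement before sorting. DN2-3 cells were CD4-CD8-Lin-CD25+, and DN4 cells were CD4-CD8-Lin-CD44-CD25-. The non-Tg mice were all female, while in each BDC group replicate 1 was male and replicate 2 female. The 2 arrays of a BDC group thus came from different animals, and their spread also holds sex. For the non-Tg groups the labels do not say whether the 2 arrays came from separate animals. The p-values measure the spread between these samples, which in the non-Tg groups may be technical. In sorted bulk RNA, fewer cells of a type and less RNA per cell cannot be told apart.

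Median intensity was 123.1 to 138.2 over the 16 arrays. The ratio of upper to lower quartile was 7.05 on NOD DN2-3 replicate 1 and 7.87 and 7.74 on the B6g7 DN4 arrays, against 8.67 to 10.7 on the other 13 arrays. Il2ra, which encodes CD25, had group means of 9.1 to 10.38 in DN4 and 12.36 to 13.2 in DN2-3. Between the NOD DN2-3 arrays the 84 members differed by a median of 0.21 in absolute log2 value (0.25 over all genes), against 0.07 to 0.20 in the other 7 groups. The value of 0.20 was that of B6g7 DN4 (0.13 over all genes). There replicate 1 was higher than replicate 2 by more than 0.3 for 21 members and lower for 4. In BDC/B6g7 DN2-3 it was higher for 14 and lower for 0. In NOD DN2-3, replicate 1 was lower than replicate 2 by more than 0.3 for 17 members and higher by more than 0.3 for 16. The widest gaps were Atp5d (-2.25) and Ndufs8 (-1.04) on the low side, and Ndufa2 (0.80) and Ndufv3 (0.71) on the high side. Across the 84 members this replicate difference correlated with B6g7 DN4 minus NOD DN4, with which it shares no array (Pearson r = 0.602, Spearman rho = 0.659, against 0.492 and 0.569 over all 10689 genes). It also correlated with B6g7 DN4 minus BDC/B6g7 DN4 (r = 0.654, rho = 0.485, against 0.288 and 0.317). These are correlations across genes, which are not independent replicates, and the part of the array spread in the results below was not tested.

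The members' levels set BDC/B6g7 DN4 apart from the other groups. Expressed as the median over the 84 members of each gene's deviation from its own mean over all arrays, its arrays stood at -0.44 and -0.41 on the log2 scale. Non-Tg DN4 arrays stood above the middle, at 0.26 and 0.30 in NOD and at 0.31 and 0.14 in B6g7. BDC/NOD DN4 was near the middle (-0.02 and -0.01). Among DN2-3 cells, BDC/NOD (0.08 and 0.15) and BDC/B6g7 (0.21 and 0.13) were above the middle, and NOD (-0.15 and -0.09) and B6g7 (-0.19 and -0.21) below it. The same median over all genes tested lay between -0.11 and 0.08 on every array.

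Each of the 5 complexes had its lowest medians in BDC/B6g7 DN4: -0.39 and -0.40 for complex I, -0.57 and -0.57 for complex II, -0.46 and -0.41 for complex III, -0.47 and -0.40 for complex IV, and -0.62 and -0.44 for complex V. BDC/B6g7 DN4 was the lowest of the 8 groups for 63 of the 84 members, against 30.8% of all genes tested. NOD DN4 was the highest group for 36 members (22.2% of all genes), BDC/B6g7 DN2-3 for 23 (12.3%) and B6g7 DN4 for 22 (12.2%).

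**Figure D1:**
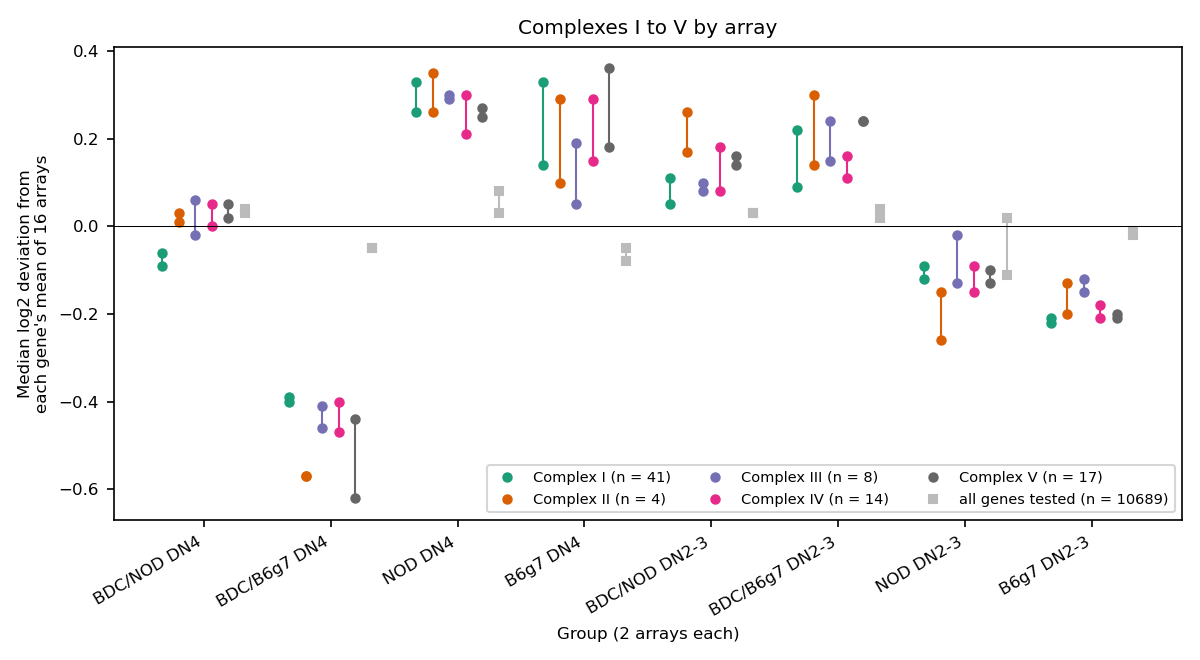
Median log2 deviation of each complex's tested genes from their own means, with the 2 arrays of a group joined by a line. BDC/B6g7 DN4 has the lowest medians in all 5 complexes, and all genes tested stay between -0.11 and 0.08.

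The span between a gene's highest and lowest group mean had a median of 0.86 over the members and 0.71 over all genes. Within complex I the span ran between 0.34 for Ndufa5 and 1.77 for Ndufa2, both accessory subunits. In complex II it ran between 0.33 for Sdha, the flavoprotein, and 1.24 for Sdhc, a membrane anchor. In complex III it ran between 0.22 for Uqcrh, the hinge protein, and 1.62 for Uqcr11. Cox6a2 (0.51) and Cox6b2 (1.54) bounded complex IV, and Atp5b (0.51) and Atp5d (1.81) bounded complex V.

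**Figure D2:**
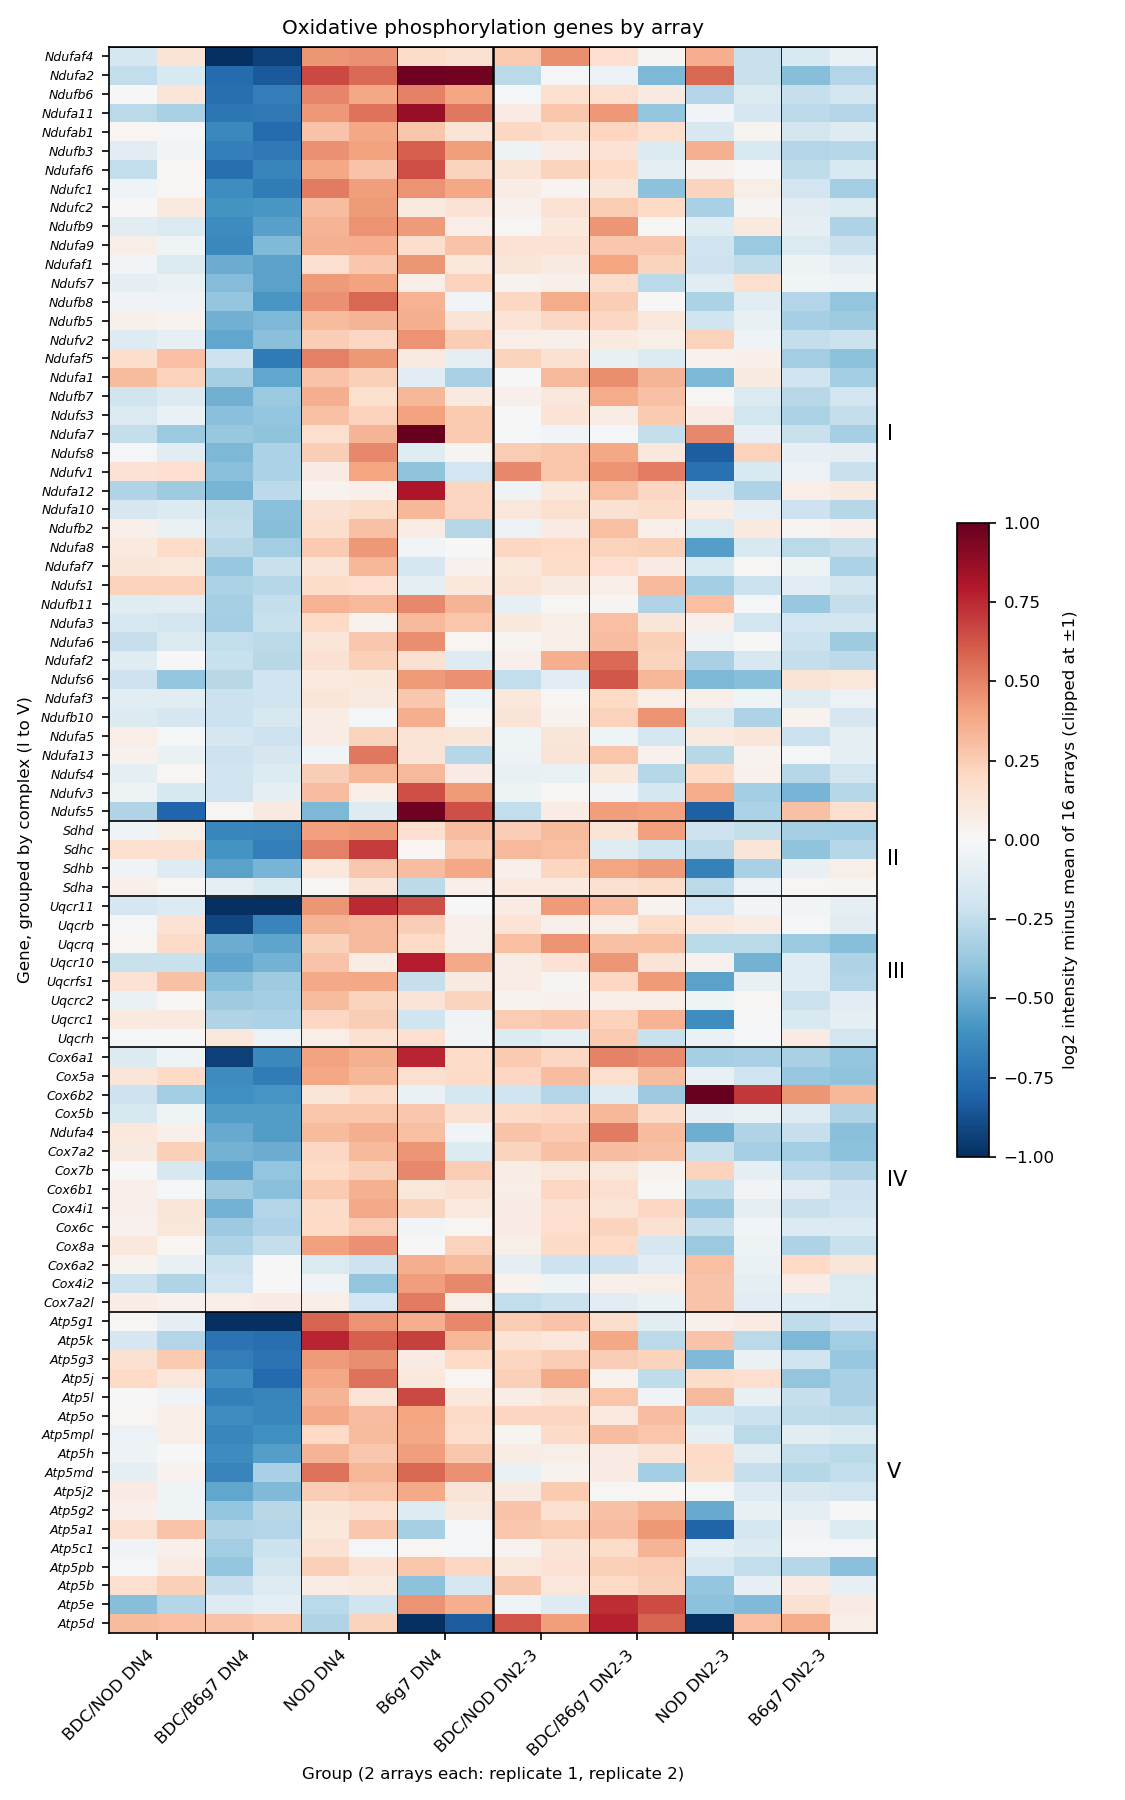
Log2 deviation of each tested oxidative phosphorylation gene from its mean over the 16 arrays, one row per gene and one column per array, ordered by complex. Most rows are low in both BDC/B6g7 DN4 columns, and Atp5d is low in the B6g7 DN4 columns instead.

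The largest differences were between BDC and non-Tg DN4 cells on the B6g7 background. In that comparison 69 of 84 members were lower in BDC cells and 1, Atp5d, was higher, where 29.2% of all genes were lower and 30.1% higher (59.3% either way). The median change of the members was -0.66, against -0.02 over all genes. Calls are adjusted p-values under 0.05 in the fit across all genes, and changes are log2 differences with the standard error of that fit.

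Complex I contributed 34 of its 41 tested genes to the lower side (median -0.68): 25 of 28 accessory subunits, 4 of 6 core subunits and 5 of 7 assembly factors. Ndufa2, an accessory subunit, had log2 levels of 9.63 and 9.56 in BDC/B6g7 DN4, against 11.37 and 11.36 in B6g7 DN4. It was low on both BDC arrays, with no overlap, and fell by 1.77 ± 0.20 (adjusted p = 5.7e-06). Ndufa11, an accessory subunit of the membrane arm, had 9.40 and 9.41 in BDC/B6g7 DN4 and 11.00 and 10.65 in B6g7 DN4 (-1.42 ± 0.20, adjusted p = 3.5e-05). The arrays again did not overlap. Ndufv1, which binds NADH, had 9.29 and 9.39 in BDC/B6g7 DN4 and 9.31 and 9.52 in B6g7 DN4, a change of -0.08 that did not pass the test (adjusted p = 0.71).

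In complex II, 3 of 4 genes were lower (median -0.82). Sdhd, a membrane anchor, had 9.21 and 9.19 in BDC/B6g7 DN4 and 10.03 and 10.17 in B6g7 DN4 (-0.90 ± 0.10, adjusted p = 4.6e-06). Sdhb, the iron-sulfur subunit, had 9.28 and 9.35 in BDC/B6g7 DN4 and 10.12 and 10.20 in B6g7 DN4 (-0.85 ± 0.12). Sdhc, the other anchor, had 10.16 and 10.07 in BDC/B6g7 DN4 and 10.78 and 11.02 in B6g7 DN4 (-0.79 ± 0.12). All 3 were lower on both BDC arrays. Sdha differed by -0.02 ± 0.11 (adjusted p = 0.86).

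Complex III had 5 of 8 genes lower (median -0.58), 4 of 5 accessory and 1 of 3 core subunits. Uqcr11, a small accessory subunit, had 8.39 and 8.34 in BDC/B6g7 DN4 and 10.03 and 9.39 in B6g7 DN4 (-1.34 ± 0.18, adjusted p = 2.9e-05). The B6g7 DN4 arrays differed between themselves by more than the BDC arrays did, and the groups did not overlap. Uqcrh had 10.64 and 10.47 in BDC/B6g7 DN4 and 10.70 and 10.50 in B6g7 DN4 (-0.05, adjusted p = 0.77).

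Complex IV had 13 of 14 tested genes lower (median -0.54). Cox6a1, the widely expressed isoform of subunit VIa, had 8.56 and 8.85 in BDC/B6g7 DN4 and 10.26 and 9.68 in B6g7 DN4 (-1.27 ± 0.15, adjusted p = 8.6e-06). Both BDC arrays were below both non-Tg arrays. The 3 tissue isoforms above the floor were lower too: Cox4i2, a lung isoform, by -0.54, Cox6a2, a heart and muscle isoform, by -0.45, and Cox6b2, a testis isoform, by -0.48. Their widely expressed counterparts Cox4i1 (-0.54) and Cox6b1 (-0.52) were lower as well. Cox4i2 and Cox6a2 were near the floor, with group means of 7.02 to 7.72 and 7.45 to 7.96. Both were highest in B6g7 DN4, whose arrays had a narrow spread. On NOD DN2-3 replicate 1, also narrow, they were 0.38 and 0.37 higher than on replicate 2. In NOD DN4, BDC and non-Tg means were 7.02 and 7.06 for Cox4i2, 7.61 and 7.45 for Cox6a2, and 7.47 and 7.91 for Cox6b2. The part of array spread in these falls was not tested.

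Complex V had 14 of 17 genes lower (median -0.76), including 3 of 3 c-ring, 5 of 5 membrane and 4 of 4 peripheral stalk genes. For the stalk gene Atp5pb the probe set used changed by -0.52 and its other probe set by 0.03. Atp5g1, one of 3 genes for the same c-ring protein, had 10.88 and 10.82 in BDC/B6g7 DN4 and 12.25 and 12.37 in B6g7 DN4 (-1.46 ± 0.10, adjusted p = 7.2e-08). The groups were far apart beside the gap between their own arrays. The other c-ring genes were Atp5g3 (-0.86 ± 0.11, adjusted p = 2.6e-05) and Atp5g2 (-0.32 ± 0.13, adjusted p = 0.046). Atp5k, subunit e of the dimer interface, had 8.44 and 8.42 in BDC/B6g7 DN4 and 9.86 and 9.51 in B6g7 DN4 (-1.25 ± 0.20, adjusted p = 0.00012). In the catalytic head and central stalk, 2 of 5 genes were lower. Atp5a1 (-0.12, adjusted p = 0.53) and Atp5b (0.11, adjusted p = 0.45), the alpha and beta subunits of the head, did not pass the test.

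Of the 15 members not lower in BDC/B6g7 DN4 against B6g7 DN4, 11 were lower in BDC/B6g7 DN4 against BDC/B6g7 DN2-3, a comparison that holds none of the 3 arrays with a narrow spread and that shares the BDC/B6g7 DN4 arrays. That comparison is one of stage and not of the transgene, and 70 of the 84 members were lower in it. Over all genes 30.4% were lower there and 50.8% differed either way. Among the 11 were Ndufv1 (-0.85 ± 0.17), Atp5a1 (-0.67 ± 0.16), Uqcrfs1, the Rieske protein (-0.70), Uqcrc1 (-0.59) and Atp5b (-0.40). Further probe sets were available for 17 of the members, 25 in all, and 23 had the sign of the one used in BDC minus non-Tg B6g7 DN4 cells. Atp5pb (0.03 against -0.52) and Cox7a2l (0.43 against -0.21) were the exceptions.

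RefSeq promoter windows (GRCm38.p6, 250 bases before to 50 after a start) were matched for 73 of the 89 members, 78 windows in all. Both strands were searched for 4 motifs, named after factors known to bind promoters of such genes: NRF1 (GCGCNTGCG), GABPA (CCGGAAGT), YY1 (AAGATGGCG) and the E-box of MYC (CACGTG). NRF1 letters were found in 33.3% of the members' windows and 6.31% of all 32851 windows, and YY1 letters in 8.97% and 1.4%. A first search with longer letters, a C added for NRF1 and GC for YY1, gave 24.4% and 4.6% for NRF1, and 5.13% and 0.633% for YY1. GABPA letters were in 6.41% and 3.89%, and the E-box in 8.97% and 7.15%. No 2 matches of different motifs overlapped in the members' windows. NRF1 letters occurred in 25 member genes: 10 of complex I, 2 of complex II, 3 of complex III, 1 of complex IV and 9 of complex V. No window is shown for Ndufa2, which fell the most. The windows below are those of 4 of the genes with the largest falls and of Atp5d, which was higher, with motif letters in capitals.
Cox6a1, chr5:115348909-115349208, minus strand, with NRF1 letters: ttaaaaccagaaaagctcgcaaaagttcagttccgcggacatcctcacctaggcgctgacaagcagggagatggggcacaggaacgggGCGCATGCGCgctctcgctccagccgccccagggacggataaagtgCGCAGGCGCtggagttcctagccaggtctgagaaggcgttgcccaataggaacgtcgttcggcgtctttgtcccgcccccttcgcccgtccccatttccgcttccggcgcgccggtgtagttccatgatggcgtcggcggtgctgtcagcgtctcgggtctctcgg
Ndufa11, chr17:56717512-56717811, plus strand, with NRF1 letters: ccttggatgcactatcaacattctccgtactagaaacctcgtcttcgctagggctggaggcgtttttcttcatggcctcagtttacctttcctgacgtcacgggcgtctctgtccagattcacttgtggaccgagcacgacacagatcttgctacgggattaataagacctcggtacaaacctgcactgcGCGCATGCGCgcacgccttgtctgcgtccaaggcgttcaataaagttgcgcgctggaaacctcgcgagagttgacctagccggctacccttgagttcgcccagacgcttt
Uqcr11, chr10:80406772-80407071, minus strand, with NRF1 and GABPA letters: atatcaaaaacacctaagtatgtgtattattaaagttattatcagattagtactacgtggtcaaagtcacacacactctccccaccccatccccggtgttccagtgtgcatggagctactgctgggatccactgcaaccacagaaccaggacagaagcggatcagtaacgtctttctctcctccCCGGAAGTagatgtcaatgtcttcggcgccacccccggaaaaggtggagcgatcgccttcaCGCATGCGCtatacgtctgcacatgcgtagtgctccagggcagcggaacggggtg
Atp5g1, chr11:96075582-96075881, minus strand, with an E-box: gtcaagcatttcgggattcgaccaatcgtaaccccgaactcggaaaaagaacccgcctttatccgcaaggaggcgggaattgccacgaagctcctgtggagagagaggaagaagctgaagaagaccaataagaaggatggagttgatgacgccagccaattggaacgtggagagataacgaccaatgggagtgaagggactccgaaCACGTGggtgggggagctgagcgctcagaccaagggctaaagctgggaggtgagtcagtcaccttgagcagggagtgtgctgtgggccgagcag
Atp5d, chr10:80142025-80142324, plus strand, with no match: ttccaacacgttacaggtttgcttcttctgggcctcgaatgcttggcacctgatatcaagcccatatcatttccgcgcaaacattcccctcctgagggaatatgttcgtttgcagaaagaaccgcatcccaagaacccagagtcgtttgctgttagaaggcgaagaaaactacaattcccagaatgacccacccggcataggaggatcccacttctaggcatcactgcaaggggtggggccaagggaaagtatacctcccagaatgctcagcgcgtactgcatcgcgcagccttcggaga
A match is a string of letters and not a binding site, and the window shown for Atp5d lacks only these letters. A further window of Atp5d, for a start slightly downstream, holds 1 NRF1 match.

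In NOD DN4 cells 32 of 84 members were lower in BDC than in non-Tg cells and 0 were higher, where 14.8% of all genes were lower and 10.6% higher (25.3% either way). At an unadjusted p under 0.05, limma gave 49 lower and 0 higher, and 7 of the 84 had a positive change. The median change was -0.29, against -0.03 over all genes. Complex I had 21 of 41 lower (median -0.33), complex II 2 of 4 (-0.34), complex III 2 of 8 (-0.22), complex IV 3 of 14 (-0.23) and complex V 4 of 17 (-0.25).

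Atp5k had 9.01 and 8.88 in BDC/NOD DN4 and 9.94 and 9.77 in NOD DN4 (-0.91 ± 0.20, adjusted p = 0.0049). Ndufa2 had 10.15 and 10.24 in BDC/NOD DN4 and 11.06 and 10.96 in NOD DN4 (-0.82 ± 0.20, adjusted p = 0.0091). Neither gene overlapped between the groups. Ndufa11 changed by -0.79 ± 0.20 (adjusted p = 0.010), Uqcr11 by -0.75 ± 0.18 (adjusted p = 0.0087), Atp5g1 by -0.55 ± 0.10 (adjusted p = 0.0016) and Cox6a1 by -0.47 ± 0.15 (adjusted p = 0.035). Leaving out either NOD DN4 array gave 7, and leaving out BDC/NOD DN4 replicate 1 gave 4 and replicate 2 gave 9. Dropping the 4 male arrays, so that BDC groups kept 1 array, gave 2.

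In DN2-3 cells the direction was the opposite. On B6g7, 43 members were higher and 1 lower in BDC cells (16.8% and 12.5% of all genes, 29.4% either way), with a median of 0.35 in the members against 0.03 over all genes. By complex, 21 genes of complex I, 2 of complex II, 4 of complex III, 8 of complex IV and 8 of complex V were higher, with medians of 0.34, 0.30, 0.32, 0.34 and 0.40. Cox6a1 had 9.99 and 9.97 in BDC/B6g7 DN2-3 and 9.17 and 9.10 in B6g7 DN2-3 (0.84 ± 0.15, adjusted p = 0.0012). Ndufa4, now placed in complex IV, had 9.19 and 8.98 in BDC/B6g7 DN2-3 and 8.44 and 8.25 in B6g7 DN2-3 (0.74 ± 0.12, adjusted p = 0.00059). Both genes were higher on each BDC array. Uqcrq, a small accessory subunit of complex III, had 9.49 and 9.50 in BDC/B6g7 DN2-3 and 8.83 and 8.77 in B6g7 DN2-3 (0.69 ± 0.09, adjusted p = 0.00015). Cox7a2, a complex IV subunit, rose by 0.68 ± 0.14 and Ndufa1, an accessory subunit of complex I, by 0.68 ± 0.16. Leaving out B6g7 DN2-3 replicate 1 gave 25 calls and replicate 2 gave 19. Leaving out BDC/B6g7 DN2-3 replicate 1 gave 27, and dropping all 4 male arrays gave 7.

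On NOD, 32 members were higher and 1 lower in BDC DN2-3 cells (21.5% and 14.1% of all genes, 35.6% either way), with a median of 0.26 in the members against 0.06 over all genes. The higher genes were 10 of complex I, 3 of complex II, 2 of complex III, 8 of complex IV and 9 of complex V. Ndufa4 had 8.95 and 8.93 in BDC/NOD DN2-3 and 8.18 and 8.37 in NOD DN2-3 (0.66 ± 0.12, adjusted p = 0.0012). Uqcrq had 9.50 and 9.65 in BDC/NOD DN2-3 and 8.93 and 8.93 in NOD DN2-3 (0.64 ± 0.09, adjusted p = 0.00029). Sdhb had 9.86 and 10.03 in BDC/NOD DN2-3 and 9.14 and 9.49 in NOD DN2-3 (0.63, adjusted p = 0.0014). All 3 genes were higher on both BDC arrays. Ndufv1 (0.83 ± 0.17) and Atp5a1 (0.75 ± 0.16) also rose, and both were 0.60 or more lower on NOD DN2-3 replicate 1 than on replicate 2. Leaving out BDC/NOD DN2-3 replicate 1 gave 17 calls, replicate 2 gave 18 and NOD DN2-3 replicate 1 gave 23. Dropping the 4 male arrays gave 4.

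**Figure D3:**
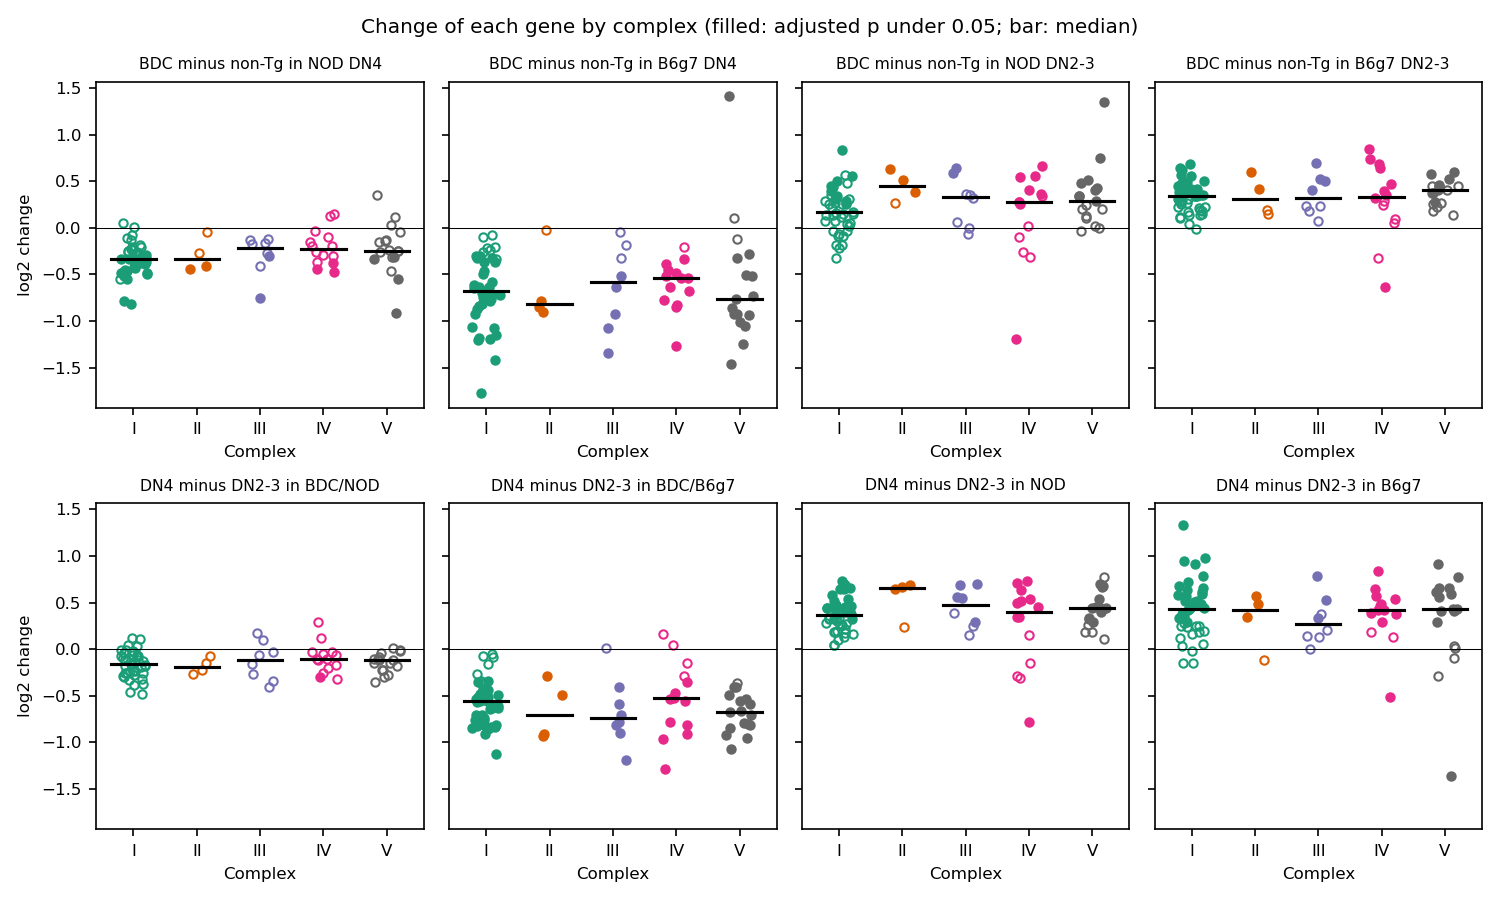
Log2 change of each tested member, by complex, in BDC minus non-Tg cells of each strain and stage (top) and DN4 minus DN2-3 cells of each mouse (bottom); filled points passed the test and bars are medians. In B6g7 DN4 the members lie mostly below 0 with a median of -0.66, and in B6g7 DN2-3 mostly above 0 with a median of 0.35.

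The dependence of the transgene difference on stage was tested itself, as the DN4 difference minus the DN2-3 difference averaged over strains. It was negative for 73 members and positive for 1, where 31.5% of all genes were negative and 26.3% positive (57.8% either way), with a median of -0.79 in the members against -0.04 over all genes. By complex, 38 genes of complex I, 3 of complex II, 7 of complex III, 10 of complex IV and 15 of complex V were negative. Cox6a1 had the most negative value (-1.57 ± 0.15, adjusted p = 1.5e-06), followed by Ndufa11 (-1.39 ± 0.20), Atp5k (-1.37 ± 0.20), Uqcr11 (-1.34 ± 0.18) and Atp5g1 (-1.24 ± 0.10). Cox6b2 was the positive one (0.46 ± 0.13, adjusted p = 0.01).

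The transgene difference was also compared between strains. In DN4 cells NOD minus B6g7 of this difference was positive for 28 members and negative for 0. Over all genes 9.2% were positive and 10.9% negative (20.1% either way). The median was 0.37 in the members against -0.04 over all genes. A positive value meant a less negative difference in NOD, or for Cox6a2 a difference above 0 (7.61 in BDC/NOD DN4, 7.45 in NOD DN4). At an unadjusted p under 0.05, 43 were positive and 0 negative, and 6 of the 84 had a negative value. These 28 comprised 11 genes of complex I, 2 of complex II, 2 of complex III, 5 of complex IV and 8 of complex V. Ndufa2 differed by 0.95 ± 0.28 (adjusted p = 0.031), Atp5g1 by 0.91 ± 0.14 (adjusted p = 0.00085), and Cox6a1 by 0.80 ± 0.21 (adjusted p = 0.018). Ndufb6, an accessory subunit of complex I, differed by 0.80 ± 0.13 and Atp5l, subunit g of ATP synthase, by 0.80 ± 0.24. Leaving out B6g7 DN4 replicate 1 gave 12. Leaving out replicate 1 or 2 of another DN4 group gave 13 or 11 (NOD), 10 or 14 (BDC/B6g7) and 15 or 9 (BDC/NOD). The count was 1 when the male arrays were dropped, 16 with no floor on signal and 13 with arrays centred on their medians. In DN2-3 cells limma called 0 members for a difference between strains (0.327% of all genes were positive and 0.823% negative, 1.15% either way), and 5 had an unadjusted p under 0.05, all negative. Without NOD DN2-3 replicate 2 that count was 16.

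Between stages, non-Tg and BDC cells were compared separately. In non-Tg B6g7 mice 56 members were higher and 2 lower in DN4 than in DN2-3 cells (17.8% and 25.0% of all genes, 42.8% either way), with a median of 0.42 in the members against -0.04 over all genes. Ndufa2 had 11.37 and 11.36 in B6g7 DN4 and 9.97 and 10.10 in B6g7 DN2-3 (1.33 ± 0.20, adjusted p = 0.00021). Ndufa11 (0.98 ± 0.20), Ndufa7 (0.95 ± 0.22) and Ndufv3 (0.91 ± 0.18), further complex I genes, and Atp5k (0.91 ± 0.20) also rose. The higher genes were 27 of complex I, 3 of complex II, 3 of complex III, 11 of complex IV and 12 of complex V. The count of 58 was 33 without B6g7 DN4 replicate 1.

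In non-Tg NOD mice 49 members were higher and 1 lower in DN4 (26.3% and 12.3% of all genes, 38.6% either way), with a median of 0.40 in the members against 0.10 over all genes. Cox6a1 had 9.90 and 9.85 in NOD DN4 and 9.16 and 9.17 in NOD DN2-3 (0.71 ± 0.15, adjusted p = 0.0027). Ndufb8 (0.73 ± 0.13), Ndufa4 (0.73 ± 0.12), Atp5g3 (0.70 ± 0.11) and Uqcr11 (0.70 ± 0.18) rose by similar amounts. Of complex II, Sdhb (0.69), Sdhc (0.67) and Sdhd (0.65) rose. The count of 50 was 29 without NOD DN4 replicate 2 and 51 without NOD DN2-3 replicate 1.

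In BDC/B6g7 mice the stage difference ran the other way: 70 members were lower in DN4 and 0 higher (30.4% and 20.4% of all genes, 50.8% either way), with a median of -0.59 in the members against -0.05 over all genes. A negative change was found for 81 of the 84, and at an unadjusted p under 0.05 limma gave 72 lower and 0 higher. Complex I had 34 of 41 lower, with 6 of 6 core subunits and 7 of 7 assembly factors, complex II 4 of 4, complex III 7 of 8, complex IV 10 of 14 and complex V 15 of 17. Cox6a1 had 8.56 and 8.85 in BDC/B6g7 DN4 and 9.99 and 9.97 in BDC/B6g7 DN2-3 (-1.28 ± 0.15, adjusted p = 1.3e-05). Ndufaf4, an assembly factor of complex I, had 7.34 and 7.52 in BDC/B6g7 DN4 and 8.62 and 8.48 in BDC/B6g7 DN2-3 (-1.12 ± 0.16, adjusted p = 6.8e-05). Both DN4 arrays were below both DN2-3 arrays for each gene. Uqcr11 (-1.19 ± 0.18), Atp5g1 (-1.07 ± 0.10) and Ndufa4 (-0.96 ± 0.12) also fell. The count was 31 without the 4 male arrays.

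In BDC/NOD mice 1 member, Cox5b of complex IV, was lower in DN4 and 0 were higher (3.41% and 7.67% of all genes, 11.1% either way), and at an unadjusted p under 0.05 limma gave 15 lower and 0 higher. The median was -0.14 in the members against -0.02 over all genes. Cox5b had 10.85 and 10.97 in BDC/NOD DN4 and 11.20 and 11.22 in BDC/NOD DN2-3 (-0.30 ± 0.09, adjusted p = 0.048). The arrays did not overlap. With the replicate number as a block within each strain and genotype 2 members were called. Leaving out single arrays gave counts between 0 and 8, with 8 without NOD DN2-3 replicate 1 or replicate 2 and 0 without either BDC/NOD array of either stage.

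Between strains the members differed most in BDC DN4 cells. There 53 were higher and 2 lower in NOD than in B6g7 (25.8% and 15.3% of all genes, 41.0% either way), with a median of 0.42 in the members against 0.05 over all genes. The higher genes counted 22 of complex I, 3 of complex II, 6 of complex III, 9 of complex IV and 13 of complex V. Atp5g1 had 11.90 and 11.80 in BDC/NOD DN4 and 10.88 and 10.82 in BDC/B6g7 DN4 (1.00 ± 0.10, adjusted p = 5.7e-06). Ndufaf4 had 8.29 and 8.59 in BDC/NOD DN4 and 7.34 and 7.52 in BDC/B6g7 DN4 (1.01 ± 0.16, adjusted p = 0.00024). Neither overlapped between strains. Atp5g3 (0.92 ± 0.11) and Uqcr11 (0.87 ± 0.18) also rose. The count was 16 without the 4 male arrays.

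In the other contexts few members differed by strain, and counted either way their share was no larger than that of all genes. In non-Tg DN2-3 cells 3 were higher and 4 lower in NOD (5.0% and 5.58% of all genes, 10.6% either way). In BDC DN2-3 cells 2 were higher and 2 lower (3.53% and 5.66%, 9.19% either way), and in non-Tg DN4 cells 7 were higher and 6 lower (14.0% and 4.75%, 18.7% either way). The first count, 7, became 2 or 3 on leaving out B6g7 DN2-3 replicate 1 or 2, 4 on leaving out NOD DN2-3 replicate 1 and 33 on leaving out its replicate 2. The second, 4, was 2 without BDC/B6g7 DN2-3 replicate 2 or either BDC/NOD DN2-3 array, and 1 without the male arrays. The third, 13, was 31 without either NOD DN2-3 array, 2 without NOD DN4 replicate 2, 6 without NOD DN4 replicate 1, 5 without B6g7 DN4 replicate 1 and 7 or 8 without any array of B6g7 DN2-3 or of the BDC groups.

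Of the 84 members 1 was higher and 1 lower in NOD in 4 of 4 contexts, near the shares of all genes. Atp5j, subunit F6 of the peripheral stalk, was higher in NOD in 4 of 4 contexts (1.09% of all genes), with changes of 0.53 ± 0.11 and 0.41 ± 0.11 in non-Tg and BDC DN2-3 cells and 0.41 ± 0.11 and 0.86 ± 0.11 in non-Tg and BDC DN4 cells. Its levels in BDC/NOD DN4 were 11.72 and 11.64, against 10.90 and 10.75 in BDC/B6g7 DN4. Atp5e, the epsilon subunit of the central stalk, was lower in NOD in 4 of 4 (1.13% of all genes). It had 7.57 and 7.48 in BDC/NOD DN2-3 and 8.35 and 8.26 in BDC/B6g7 DN2-3 (-0.78 ± 0.09, adjusted p = 5.5e-05). In the same order of contexts the other changes were -0.54 ± 0.09 in non-Tg DN2-3, -0.64 ± 0.09 in non-Tg DN4 and -0.25 ± 0.09 in BDC DN4. Sdhc was higher in 3 of 4 (1.85% of all genes), and Ndufs5 and Ndufs6 of complex I were lower in 3 of 4 (1.75%). Ndufs5 had 6.87 and 7.19 in NOD DN4 and 8.29 and 7.96 in B6g7 DN4 (-1.09 ± 0.19, adjusted p = 0.0028). Ndufs6 had 7.80 and 7.94 in BDC/NOD DN2-3 and 8.67 and 8.38 in BDC/B6g7 DN2-3 (-0.65 ± 0.10). Atp5j, Atp5e, Sdhc, Ndufs5 and Ndufs6 each had 1 probe set, so their strain differences could not be compared with another.

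Some members ran against the rest. Atp5d, the delta subunit of the central stalk, had 12.37 and 12.34 in BDC/B6g7 DN4 and 10.64 and 11.25 in B6g7 DN4, a change of 1.41 ± 0.48 (adjusted p = 0.021). On the B6g7 DN4 arrays and on NOD DN2-3 replicate 1 (10.13) it was lower than on the other 13 arrays, whose values were 11.78 to 12.86. These are the 3 arrays with the narrow spread, and the NOD DN2-3 pair had 10.13 and 12.38. In BDC minus non-Tg NOD DN2-3 cells Atp5d rose by 1.35 ± 0.48 (adjusted p = 0.043), and without NOD DN2-3 replicate 1 the change was 0.23 and not called. Between stages in B6g7 it fell by 1.36 ± 0.48 (adjusted p = 0.036). Without B6g7 DN4 replicate 1, neither B6g7 change of Atp5d was called (1.11 for the transgene and -1.06 for the stage).

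Cox6b2 was the member lower in BDC than in non-Tg cells at DN2-3 on both backgrounds. It had 7.55 and 7.45 in BDC/NOD DN2-3 and 8.93 and 8.45 in NOD DN2-3 (-1.19 ± 0.13, adjusted p = 4.4e-05). On B6g7 it had 7.62 and 7.38 in BDC DN2-3 and 8.19 and 8.08 in non-Tg DN2-3 (-0.64 ± 0.13, adjusted p = 0.0037). The arrays did not overlap in either strain. Between stages it fell in non-Tg B6g7 (-0.51 ± 0.13) and non-Tg NOD cells (-0.78 ± 0.13), where most other members rose.

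**Figure D4:**
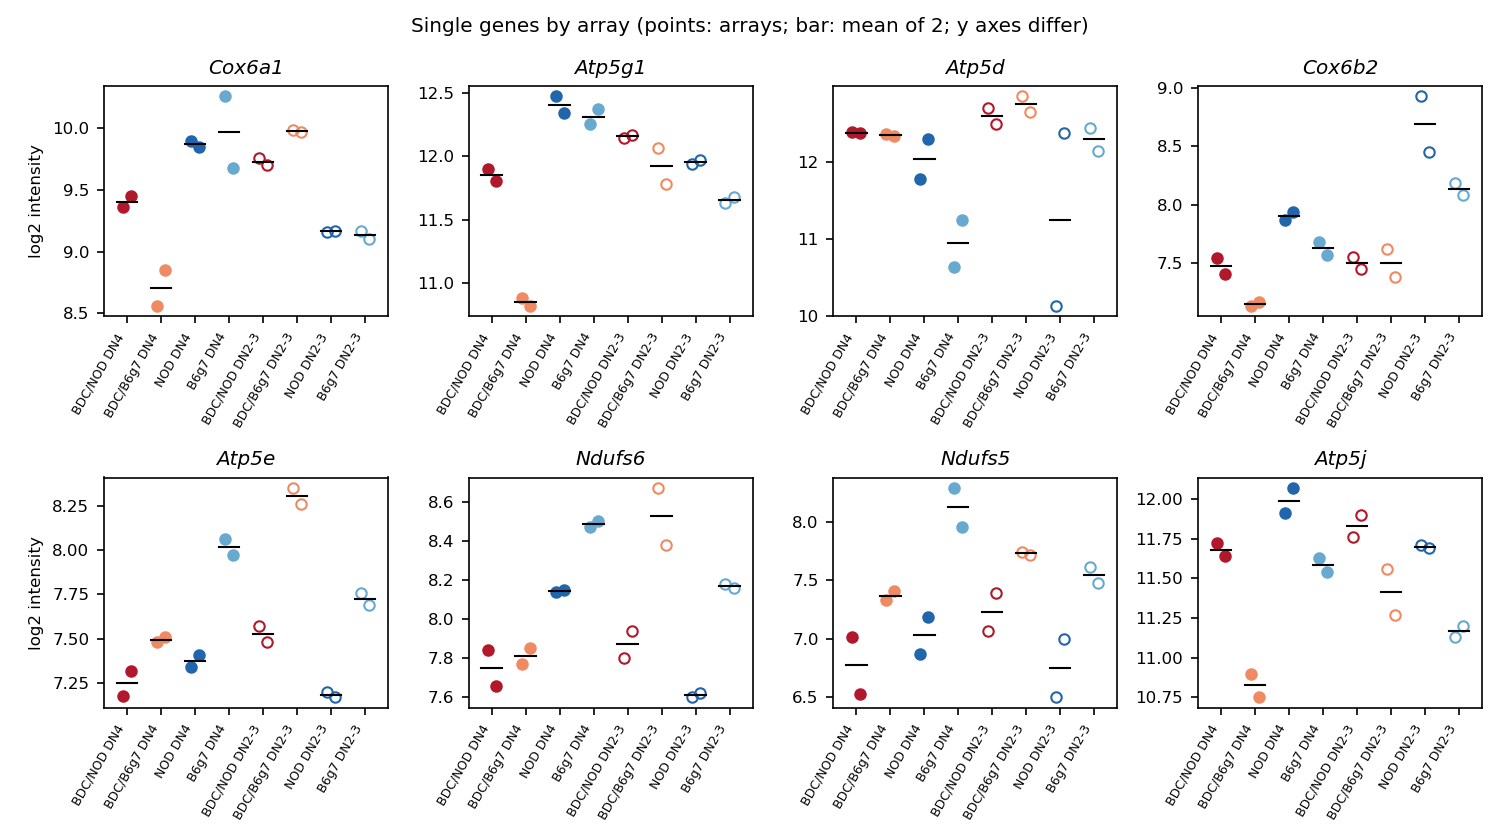
Log2 intensity of 8 members on each of the 16 arrays, by group, with bars for the mean of 2 arrays and a y axis of its own for each gene. Cox6a1 and Atp5g1 are lowest in BDC/B6g7 DN4, Atp5d is lowest on the B6g7 DN4 arrays and NOD DN2-3 replicate 1, and Cox6b2 is highest in NOD DN2-3.

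Other genes of mitochondrial metabolism were counted in the same fit. Assembly factors and electron carriers outside the symbol rule, 37 tested of 41 matched, had 19 lower and 2 higher in BDC/B6g7 DN4 against B6g7 DN4 (median -0.33), where 29.2% of all genes were lower and 30.1% higher. Cycs, cytochrome c, had group means of 11.52 in BDC/B6g7 DN4 and 12.83 in B6g7 DN4 (-1.31 ± 0.14, adjusted p = 3.1e-06). Etfdh, which passes electrons from fatty acid oxidation to ubiquinone, rose by 1.15 ± 0.12 (adjusted p = 2.6e-06). In BDC/NOD DN4 against NOD DN4 the counts were 8 lower and 0 higher, where 14.8% and 10.6% of all genes were lower and higher. In DN2-3 cells none was lower, and 9 were higher on B6g7 and 14 on NOD, where 16.8% and 21.5% of all genes were higher.

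Of 16 citric acid cycle genes tested, 8 were lower and 1 higher in BDC/B6g7 DN4 against B6g7 DN4 (median -0.39), beside the same 29.2% and 30.1% of all genes. Fh1, fumarase, had means of 9.01 in BDC/B6g7 DN4 and 10.51 in B6g7 DN4 (-1.50 ± 0.13, adjusted p = 5.9e-07), and Pdha1, of pyruvate dehydrogenase, rose by 0.63 ± 0.16 (adjusted p = 0.0033). Of 14 regulators of mitochondrial biogenesis tested, 7 were lower and 2 higher (median -0.30), beside the same shares. Myc had means of 9.39 in BDC/B6g7 DN4 and 10.97 in B6g7 DN4 (-1.58 ± 0.22, adjusted p = 3.6e-05). Gabpa, which encodes the DNA-binding subunit of GABP, fell by 0.64 ± 0.09 (adjusted p = 6.2e-05), and Gabpb1, its partner, rose by 0.41.

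Cell cycle genes moved with the members. All 9 tested were lower in BDC/B6g7 DN4 against B6g7 DN4 (median -1.33, 29.2% of all genes lower), with Tyms at -2.03 ± 0.09 and Cdk1 at -1.90 ± 0.10. In BDC/NOD DN4 against NOD DN4, 5 of 9 were lower (median -0.41, 14.8% of all genes lower). In DN2-3 cells 7 of 9 were higher in BDC on B6g7 (16.8% of all genes) and 8 of 9 on NOD (21.5%). Their array medians were -0.95 and -0.96 in BDC/B6g7 DN4, against 0.31 and 0.40 in B6g7 DN4, and 0.19 and 0.22 in BDC/NOD DN4, against 0.50 and 0.51 in NOD DN4. The part of cell division in the members' differences was not tested.

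Markers of stage and of other cell types also differed between the groups. Cd8b1 had means of 8.02 in BDC/B6g7 DN4 and 11.08 in B6g7 DN4, and Rag1 had 6.76 in BDC/B6g7 DN4 and 10.2 in B6g7 DN4. Kit had 9.61 in BDC/B6g7 DN4 and 8.32 in B6g7 DN4, and Cd3e had group means between 12.54 and 12.95. Of the 10 stage and lineage genes, 8 were lower and 1 higher in BDC/B6g7 DN4 against B6g7 DN4. Over all genes 29.2% were lower and 30.1% higher there. Genes with lower means included Il2ra (9.66 against 10.38), Cd44 (6.18 against 6.58) and Ptcra (6.71 against 8.17). Of 4 B cell genes matched, 1, Cd79b, passed the floor, and the summed intensity of the 4 was 718 and 769 in BDC/B6g7 DN4 against 522 and 501 in B6g7 DN4. In DN2-3 cells the sum was 515 and 508 in BDC/NOD against 801 and 919 in NOD, and 649 and 610 in BDC/B6g7 against 914 and 870 in B6g7. Of 6 myeloid genes 2, Lyz2 and Fcer1g, passed the floor, with sums of 384 and 407 in BDC/NOD DN2-3 and 685 and 618 in NOD DN2-3. On B6g7 the myeloid sums were 396 and 363 in BDC DN2-3 and 578 and 516 in non-Tg DN2-3, and over all DN4 arrays they were 323 to 398. Both sums were thus lower in BDC than in non-Tg DN2-3 cells of each strain, the comparisons in which 32 and 43 members were higher. Not every gene of a list went with its sum. Cd79b had means of 9.06 in BDC/B6g7 DN2-3 and 9.64 in B6g7 DN2-3, but Cd79a, below the floor, had 5.13 and 5.01. In the same groups Lyz2 had 6.11 and 7.75, and Fcer1g had 6.79 in both. On NOD, Fcer1g was lower too, with 6.93 in BDC DN2-3 and 7.72 in non-Tg DN2-3, while Cd79a had 5.3 and 5.05. The sums of the 3 natural killer genes (54.9 to 78.8) and of the 1 matched erythroid gene (63.2 to 91.2) held no gene above the floor. The 5 stromal genes had sums of 535 to 740 with 3 above the floor. The part of cell makeup in the members' differences was not tested.

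**Figure D5:**
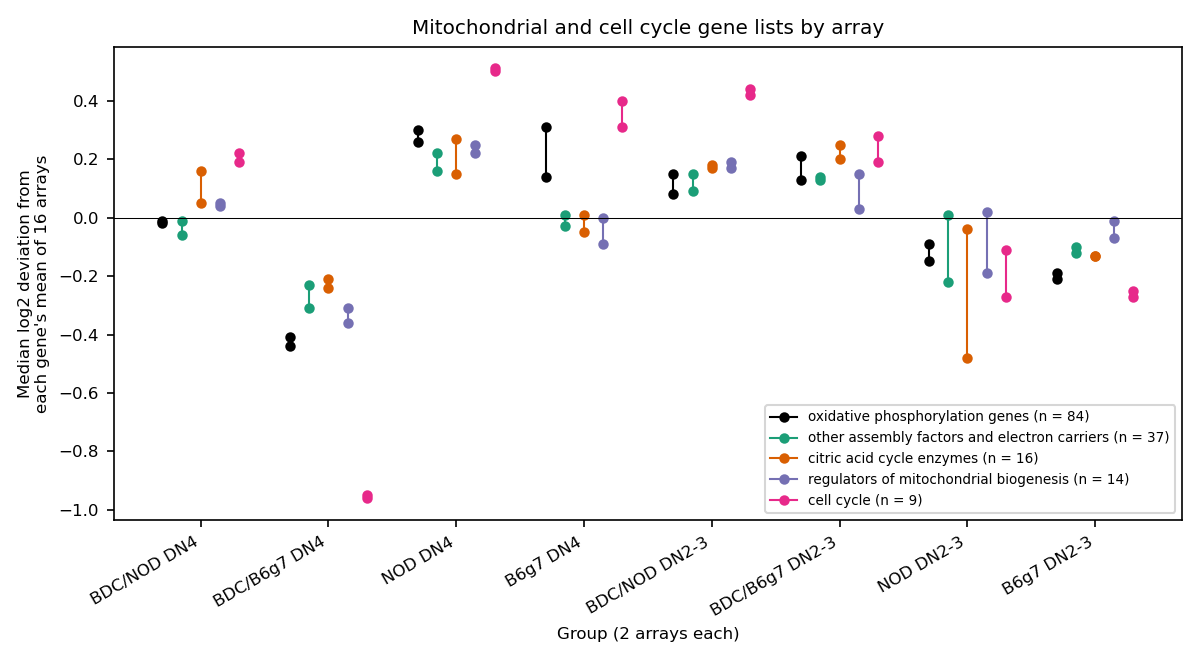
Median log2 deviation, on each array, of the oxidative phosphorylation genes and of 4 further lists, with the 2 arrays of a group joined. Cell cycle genes have the lowest medians in BDC/B6g7 DN4, at -0.95 and -0.96, and the oxidative phosphorylation genes stand at -0.44 and -0.41 there.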

How the data were processed

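Biotin-labelled RNA of 16 sorted thymocyte samples was hybridised to Affymetrix arrays, 1 per sample. Intensities were made by the authors with RMA in Affymetrix Power Tools, per the submitters' processing notes, and were deposited on a linear scale (5.82 to 21466). Versions are not given in the sources used here, nor are further steps. The table holds 25108 probe sets, of which 21157 have 1 gene symbol, 1341 several and 2610 none in the platform annotation used. Log2 was taken, the brightest probe set with 1 symbol stood for a gene (19531 genes), and genes whose highest group mean reached the median of all named probe sets (7.05) were tested (10689).

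One limma 3.58.1 model (R 4.3.3) of 8 group means over all 16 arrays, with 8 residual and 5.06 prior degrees of freedom, gave every comparison and interaction, tested two-sided at 0.05 after Benjamini-Hochberg correction across 10689 genes. Errors are standard errors of that fit. The script was tested on simulated data. The number of arrays limits the precision. Samples were grouped by their labels. Alternatives were no floor, quantile normalization again, centring, the replicate number as a block, sex as a term, the mean of a gene's probe sets, trended and robust eBayes, and leaving out each array or the 4 male arrays.

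The members and lists were chosen with earlier results of these data known. Genes are named by fixed rules: up to 5 called members in each direction per comparison, the extremes of range per complex, tissue isoforms, c-ring and Sdh genes, and members whose probe sets disagree. Other genes named beside these were chosen after their values were seen. Mitochondrially encoded subunits matched 0 of 13 genes and were not analysed here.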

Additional observations from a re-analysis of the deposited data

Results flagged for a closer look

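The difference between BDC and non-Tg cells was not the same at DN4 as at DN2-3 for 74 members, by the interaction term of the fit. Among those with the largest values were Cox6a1 (-1.57), Ndufa11 (-1.39), Atp5k (-1.37), Uqcr11 (-1.34) and Atp5g1 (-1.24), and the one positive value was that of Cox6b2 (0.46). In DN4 cells the difference between BDC and non-Tg cells was not the same on NOD as on B6g7 for 28 members. The largest positive values were those of Ndufa2 (0.95), Atp5g1 (0.91), Cox6a1 (0.80), Ndufb6 (0.80) and Atp5l (0.80).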

How the results depend on the processing

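All results here are counts of the 84 members that passed the test. The called members named for their size of change made up 81 pairs of gene and comparison. None of these 81 changes was reversed under any alternative (1765 of 1969 values kept their side of the threshold and 204 no longer passed). Genes named for other reasons, such as Cox7a2l, whose probe sets disagree in sign, were not among these pairs. Dropping the 4 male arrays keeps 1 array per BDC group, which is then assumed to vary like the other groups. For BDC against non-Tg it was 7 in B6g7 DN2-3, 4 in NOD DN2-3 and 2 in NOD DN4. For DN4 against DN2-3 it was 31 in BDC/B6g7 and 0 in BDC/NOD. For NOD against B6g7 it was 3 in non-Tg DN2-3, 1 in BDC DN2-3, 2 in non-Tg DN4 and 16 in BDC DN4, and it was 1 for the transgene by strain in DN4. With no floor on signal the counts were 0 for the stage in BDC/NOD, 7 for the strains in non-Tg DN4 and 16 for the transgene by strain in DN4. Centring gave 0, 2 (strains in BDC DN2-3) and 13 (transgene by strain in DN4). Quantile normalization gave 11 and 8 for the strains in non-Tg DN2-3 and DN4, sex as a term gave 8 for the strains in non-Tg DN4 and 0 for the stage in BDC/NOD, and trended robust eBayes gave 3 there. The labels give no pairing by replicate number beyond the sex order of the BDC groups. Replicate differences correlated between -0.254 and 0.585 over 28 pairs of groups, but at 0.313 to 0.479 in the 6 pairs of BDC groups. Between the stages of one mouse type they correlated at 0.585 in NOD, 0.479 in BDC/B6g7, 0.462 in BDC/NOD and 0.101 in B6g7. Replicate numbers thus went together in NOD and in the BDC types, and less so in B6g7. In the BDC groups replicate number was also sex, and BDC groups of different strains correlated at 0.313 to 0.408. These values do not show whether samples were paired. With the replicate block the stage count in BDC/NOD was 0, and with a replicate block within strain and genotype, chosen after seeing the data, it was 2, beside 62 in B6g7, 61 in NOD, 71 in BDC/B6g7 and 78 for the transgene by stage. No other count moved by over 1.5 times under either block (74 with the block for the transgene by stage). Leaving out single arrays gave, for BDC against non-Tg, 19 to 55 in B6g7 DN2-3, 17 to 44 in NOD DN2-3, 59 to 72 in B6g7 DN4 and 4 to 48 in NOD DN4. For the stages it gave 33 to 62 in B6g7, 29 to 52 in NOD, 58 to 72 in BDC/B6g7 and 0 to 8 in BDC/NOD. For the strains it gave 2 to 33 in non-Tg DN2-3, 2 to 6 in BDC DN2-3, 2 to 31 in non-Tg DN4 and 38 to 62 in BDC DN4. For the transgene it gave 73 to 79 by stage, 0 to 16 by strain in DN2-3 and 9 to 39 by strain in DN4. The cause of these shifts was not tested. With 2 arrays a group, small changes are not detectable.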
